A study of Homo sapiens with 12 samples.

Results

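PPARGC1A, PPARGC1B, ESRRA, NRF1, TFAM, TFB2M and POLRMT are nuclear genes that control how many mitochondria a cell makes and how actively the mitochondrial genome is transcribed. These 7 regulators were taken by name from the 56638 gene symbols of the count table, and all 7 were among the 16080 genes that passed the filter on low counts. Their RNA was followed in 501Mel, an established human melanoma cell line with mutant BRAF, over 6 treatment groups of 2 libraries each. All groups were exposed for 48 h. They received vehicle (DMSO), 1 µM Vem (Vemurafenib, an inhibitor of mutant BRAF), 5 µM RSV (Resveratrol, a plant polyphenol studied as an antagonist of the aryl hydrocarbon receptor AhR), 10 nM TCDD (a dioxin and classical AhR agonist), RSV+Vem or RSV+TCDD. For RSV+TCDD the treatment protocol gives 10 nM TCDD and the sample label gives 1 nM. The data are from 1 cell line without a second line or clone, and no label says whether the 2 libraries of a group came from separate cultures, so that p-values measure the spread between these libraries.

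PGC1α, the product of PPARGC1A, and PGC1β, the product of PPARGC1B, are coactivators: they do not bind DNA themselves but are recruited by transcription factors such as the estrogen-related receptor ERRα (ESRRA) and nuclear respiratory factor 1 (NRF1), which switch on nuclear genes of respiration. These include TFAM, TFB2M and POLRMT, whose products package, open and transcribe mitochondrial DNA (mtDNA). In melanocytic cells the lineage factor MITF is known to drive PPARGC1A, and melanomas with high PGC1α rely more on oxidative phosphorylation.

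The promoters below are shown because they hold, or lack, letter matches to the binding sequences of MITF and NRF1, the regulators named above. Sequences are from RefSeq on build GRCh38.p14, 150 bases directly before each annotated start, 5′ to 3′ on the gene's strand, and capitals mark a match on either strand to the E-box CACGTG, the M-box core CATGTG or the NRF1 core GCGCATGC. Of the 7 regulators 6 had an entry, with 7 windows in all, since PPARGC1A has 2 starts. NRF1 had no entry. The windows printed are chr4:24472906-24473055 (minus strand) for the first PPARGC1A start, chr4:23881102-23881251 (minus) for the second, chr11:64305374-64305523 (plus) for ESRRA, chr10:58385260-58385409 (plus) for TFAM, chr1:246566262-246566411 (minus) for TFB2M and chr19:633538-633687 (minus) for POLRMT. The window of PPARGC1B, chr5:149771790-149771939 (plus), held no match and is not printed.
PPARGC1A, first start: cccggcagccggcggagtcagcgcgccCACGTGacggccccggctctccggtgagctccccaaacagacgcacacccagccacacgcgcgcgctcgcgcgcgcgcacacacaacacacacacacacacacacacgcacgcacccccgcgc
PPARGC1A, second start: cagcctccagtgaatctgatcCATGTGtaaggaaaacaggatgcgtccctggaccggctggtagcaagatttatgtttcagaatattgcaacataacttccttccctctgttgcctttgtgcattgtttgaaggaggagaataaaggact
ESRRA: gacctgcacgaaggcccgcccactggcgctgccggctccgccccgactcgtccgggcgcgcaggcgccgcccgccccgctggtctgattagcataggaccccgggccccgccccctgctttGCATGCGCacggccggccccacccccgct
TFAM: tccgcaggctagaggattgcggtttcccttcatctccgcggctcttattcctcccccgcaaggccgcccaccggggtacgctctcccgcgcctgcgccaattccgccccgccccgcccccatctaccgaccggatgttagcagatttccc
TFB2M: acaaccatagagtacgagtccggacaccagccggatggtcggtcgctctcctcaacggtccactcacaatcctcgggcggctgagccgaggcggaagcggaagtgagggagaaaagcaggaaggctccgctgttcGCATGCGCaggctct
POLRMT: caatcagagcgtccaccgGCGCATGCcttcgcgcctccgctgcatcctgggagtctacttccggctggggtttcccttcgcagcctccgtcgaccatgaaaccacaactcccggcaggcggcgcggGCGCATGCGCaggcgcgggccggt

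The first PPARGC1A window held 1 E-box, at position -123 from the start, and the second held 1 M-box core, at position -129. Over the 250 bases before each of 35116 annotated starts, 6.34% held the E-box and 9.42% the M-box core. The NRF1 core occurred once in ESRRA (position -29), once in TFB2M (position -15) and 3 times in POLRMT, where 2 of the matches overlap, and in 2.63% of all windows. ESRRA also held 1 M-box core at position -187, outside the bases shown. The windows of TFAM and PPARGC1B held no exact match to these motifs. None of the 7 windows held the exact ERR half-site AAGGTCA, which was in 3.44% of all windows. Only these exact letters were searched. A binding site with a differing base was not counted, so a window without a match may still hold a site. The first PPARGC1A window held the AhR core GCGTG 4 times, a short sequence found in 32.2% of all windows. Matched by its letters to GRCh37, this first start lies at chr4:24474528, 569 kb before the PPARGC1A interval of the annotation used for that build, so that its E-box and AhR cores are outside that interval, whereas the second start lies within it. A match of letters is a description of these windows and says nothing about which factor was bound.

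The genes lie on GRCh37, the build of the counts, as follows. PPARGC1A is at chr4:23756664-23905712 on the minus strand, PPARGC1B at chr5:149109861-149234585 (plus), ESRRA at chr11:64072969-64084215 (plus), NRF1 at chr7:129251561-129396922 (plus), TFAM at chr10:60145105-60158980 (plus), TFB2M at chr1:246703863-246729563 (minus) and POLRMT at chr19:617221-633537 (minus). Counts are reads over exons per gene symbol. Positions and exon lengths are from GENCODE 44 lifted to this build, which need not be the release the authors counted. In it 284 exonic bases of ESRRA (9.16% of its exonic length) overlap TRMT112 on the opposite strand. The sources do not settle whether the strand setting used for counting matches the library kit. Reads of TRMT112 from this overlap could therefore be among the ESRRA counts.

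Gene counts per library were between 8378655 and 25076925, lowest in RSV+Vem replicate 2, and RIN values, a measure of RNA integrity, were 8.7 and 8.6 in the 2 RSV+Vem libraries and between 9.1 and 9.7 in the other 10. Levels are CPM, counts scaled to library size with TMM factors, with the SD over 2 libraries. Changes are log2 fold changes with their standard error (SE), and the adjusted p is that of the edgeR quasi-likelihood F test after Benjamini-Hochberg correction over all 16080 genes. Genes with an adjusted p under 0.05 are named as called. The cells expressed all 8 melanocytic markers examined, with a summed level of 11162 to 51561 CPM. The 5 fibroblast markers summed to 6.46 to 39.4 CPM, the 4 keratinocyte markers to at most 1.18 and the 6 immune and endothelial markers to at most 2.52. The RNA is from bulk cultures, where fewer cells with a transcript and less of it per cell cannot be told apart. TMM scaling assumes that the bulk of genes did not change. Scaling to the 92 ERCC spike-ins, RNA standards added to the samples, shifted the median log2 fold change over all genes by -0.65 for Vem, -0.17 for RSV and -0.70 for RSV+Vem against vehicle. The spike-ins held between 0.0310% and 0.0936% of the counts, and their share was 0.0389% and 0.0903% in the 2 RSV+Vem libraries. Changes are therefore given relative to the bulk of genes, and regulators whose direction turns under spike-in scaling are named.

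Vem alone moved the 2 coactivators in opposite directions. PPARGC1A rose 1.56-fold and ESRRA rose 2.49-fold, whereas PPARGC1B was 3.34-fold lower and TFAM 1.89-fold lower than with vehicle. NRF1, TFB2M and POLRMT did not pass the test. The 4 calls of 7 regulators compare with 52.4% of all tested genes called, a share near the background, and the 2 higher and 2 lower calls with 25.5% higher and 26.9% lower. Scaled to spike-ins PPARGC1B and TFAM remained called lower, while PPARGC1A turned to -0.011 and ESRRA, at 0.66, lost its call. The calls over all genes on that scale were 195 higher and 3620 lower in place of 4093 and 4329.

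RSV alone lowered 5 regulators and raised none. PPARGC1A was 2.27-fold lower, NRF1 1.57-fold, PPARGC1B 1.40-fold, TFAM 1.37-fold and POLRMT 1.37-fold lower, and ESRRA and TFB2M did not pass the test. Of all tested genes 40.7% were called, 20.5% higher and 20.2% lower. Under spike-in scaling all 7 values were below 0 and none was called, and over all genes 256 were higher and 113 lower in place of 3295 and 3243.

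RSV+Vem left 5 regulators lower than vehicle (PPARGC1B, NRF1, TFAM, TFB2M and POLRMT) and ESRRA higher, with 48.8% of all tested genes called, 24.1% higher and 24.7% lower. PPARGC1A was not called in this comparison. Under spike-in scaling 4 of the 7 were called, all lower, and ESRRA turned from 0.47 to -0.21 on the log2 scale without passing the test, while over all genes 268 were higher and 3409 lower in place of 3872 and 3979.

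**Figure D1:**
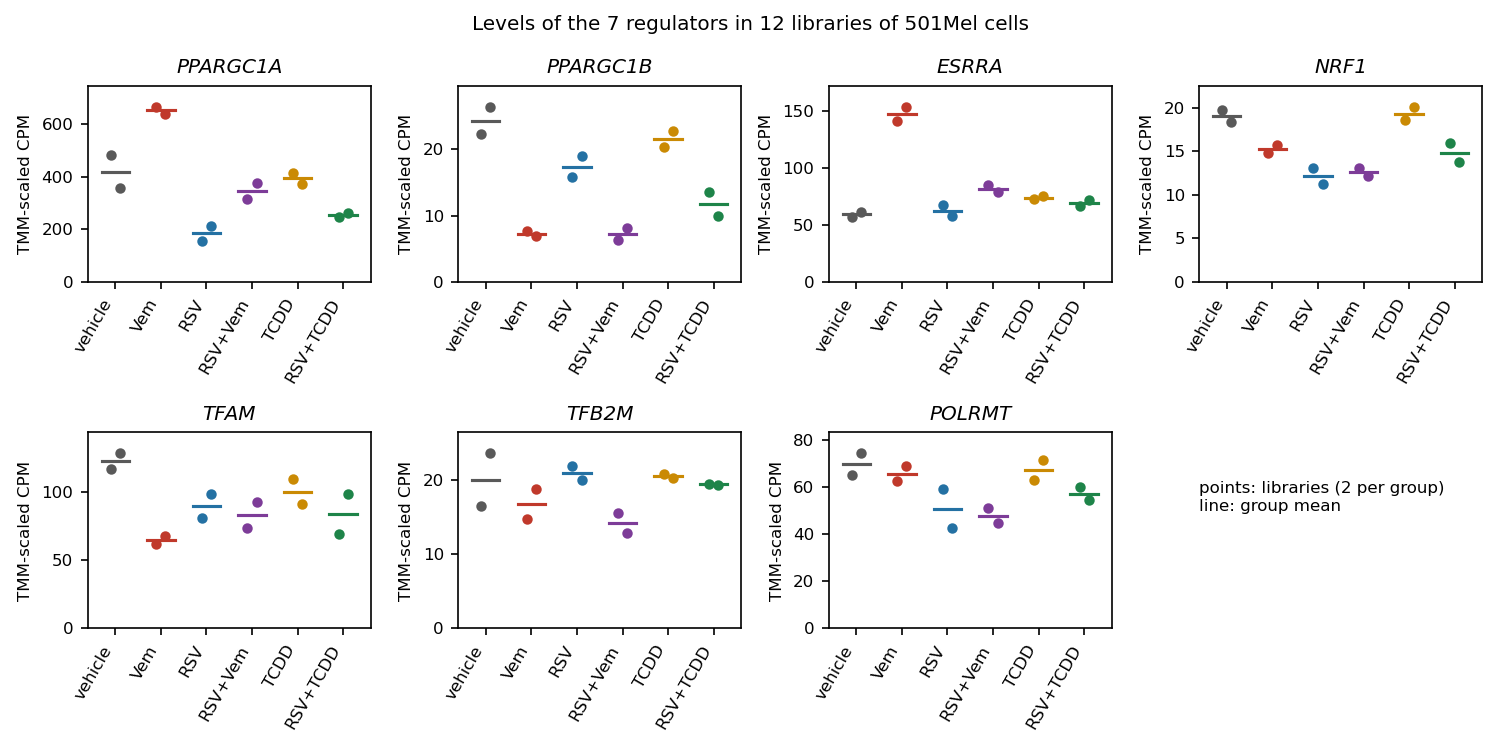
TMM-scaled CPM (vertical axes, linear, from 0) of each regulator in the 12 libraries, by treatment group; points are libraries and lines the means of 2 libraries. PPARGC1A and ESRRA are highest with Vem, where PPARGC1B and TFAM are lowest or among the lowest, and PPARGC1A is lowest with RSV.

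**Figure D2:**
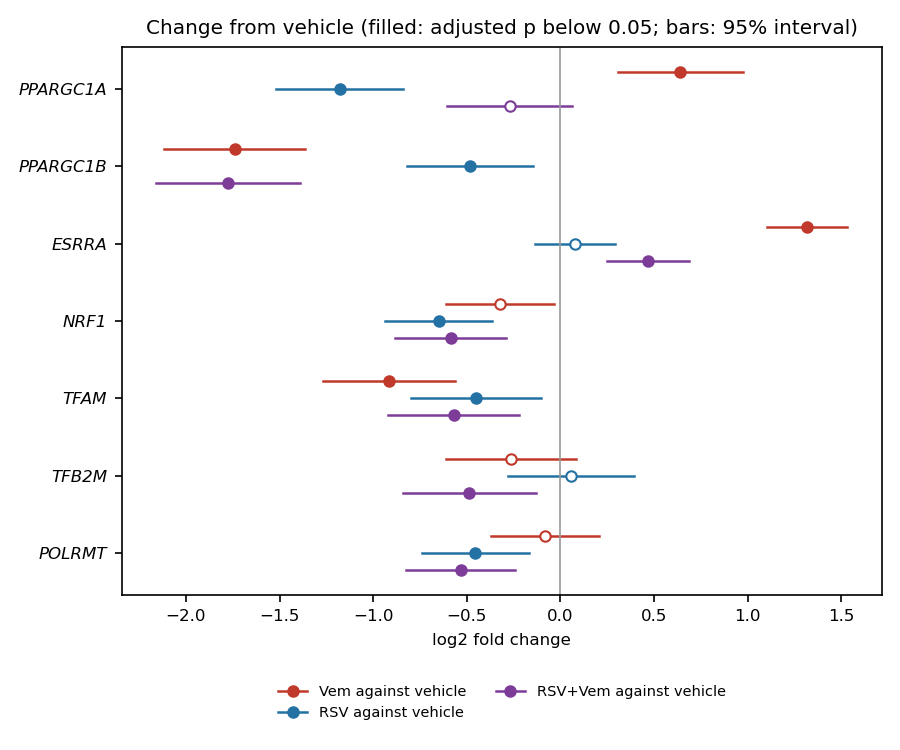
Log2 fold change from vehicle (horizontal axis) of each regulator with Vem, RSV and RSV+Vem, with the 95% interval of the fit as bars; filled points passed the test at an adjusted p below 0.05. PPARGC1A lies above 0 with Vem (0.64) and below 0 with RSV (-1.18), and PPARGC1B lies below 0 with all 3 treatments.

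PPARGC1A encodes PGC1α, the coactivator whose level is known to follow cell type and energy demand most closely. Vehicle gave 480.8 and 355.7 CPM, Vem 664.5 and 638.2, RSV 156.1 and 212.8, and RSV+Vem 316.3 and 377.1. It was 415.5 and 372.6 CPM with TCDD and 246.5 and 262.6 with RSV+TCDD. Both Vem libraries stood above all others and both RSV libraries below all others. In the order of means, Vem was followed by vehicle, TCDD, RSV+Vem, RSV+TCDD and RSV; the ranges of vehicle and TCDD overlapped, as did those of TCDD and RSV+Vem.

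The change in PPARGC1A was 0.64 with Vem (SE 0.15, adjusted p = 0.00366), with a range of 0.46 to 0.87 when each of the 4 libraries was left out in turn, lowest without vehicle replicate 2. Under spike-in scaling it was -0.01, and 0.67 above the median of all genes on that scale. RSV lowered PPARGC1A by itself and on top of either other agent. The log2 fold change was -1.18 against vehicle (SE 0.16, adjusted p = 8.52e-05), -0.91 for RSV+Vem against Vem (SE 0.16, adjusted p = 0.000525) and -0.63 for RSV+TCDD against TCDD (SE 0.15, adjusted p = 0.00655), all below 0 under spike-in scaling too. The last of these lost its call without TCDD replicate 1 (adjusted p = 0.0556) and without RSV+TCDD replicate 1 (adjusted p = 0.0564). With RSV and Vem together PPARGC1A overlapped the vehicle range (log2 fold change -0.27, SE 0.15, adjusted p = 0.165, 95% interval -0.61 to 0.06), although without vehicle replicate 2 it was called lower at -0.46 (adjusted p = 0.0211).

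PPARGC1B, the gene of PGC1β, had 22.3 and 26.4 CPM in the vehicle libraries, 7.65 and 6.92 with Vem, 15.8 and 19.0 with RSV, and 6.38 and 8.21 with RSV+Vem. TCDD gave 20.3 and 22.7 CPM, and RSV+TCDD 13.6 and 9.99. The 4 libraries with Vem were the lowest of all, and the Vem and RSV+Vem ranges overlapped. The change with Vem was -1.74 (SE 0.18, adjusted p = 2.28e-07) and that with Vem on top of RSV was -1.29 (SE 0.19, adjusted p = 7.57e-05). The interaction, that is the effect of Vem with RSV minus its effect without, was 0.45 and not called (SE 0.26, adjusted p = 0.231, 95% interval -0.10 to 1.00). RSV lowered PPARGC1B against vehicle (-0.48, SE 0.16, adjusted p = 0.0221), a call that was lost without RSV replicate 1 (-0.36, adjusted p = 0.162) and without vehicle replicate 2 (-0.35, adjusted p = 0.163). On top of Vem the RSV value for PPARGC1B was -0.03 (SE 0.21, adjusted p = 0.913, 95% interval -0.47 to 0.40).

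Compared per kilobase of exon, the vehicle libraries held 38.5 ± 8.13 CPM per kb of PPARGC1A and 1.89 ± 0.228 CPM per kb of PPARGC1B (SD, n = 2 libraries). With Vem these levels were 59.9 ± 1.71 and 0.565 ± 0.0402 CPM per kb, so that the coactivator with the higher level rose and that with the lower level fell. On the same scale the other regulators had vehicle levels of 23.2 for TFAM, 19.1 for ESRRA, 13.7 for POLRMT, 11.2 for TFB2M and 4.62 CPM per kb for NRF1.

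ESRRA encodes the orphan nuclear receptor ERRα, a main DNA-binding partner of both coactivators. It stood at 56.9 and 61.7 CPM with vehicle, 141.7 and 153.9 with Vem, 67.5 and 57.8 with RSV, and 85.0 and 78.8 with RSV+Vem. TCDD gave 72.9 and 75.4 CPM and RSV+TCDD 66.7 and 71.8. The Vem libraries were far above the rest, RSV+Vem came next without overlap, and the vehicle and RSV ranges overlapped. The change with Vem was 1.32 (SE 0.10, adjusted p = 7.04e-09), and 0.66 without a call on the spike-in scale (adjusted p = 0.243).

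RSV by itself left ESRRA at 0.08 (SE 0.10, adjusted p = 0.577, 95% interval -0.14 to 0.29), but on top of Vem it lowered ESRRA by a log2 fold change of -0.85 (SE 0.10, adjusted p = 4.41e-06). The effect of Vem on ESRRA was 1.32 without RSV and 0.39 with it (SE 0.10, adjusted p = 0.0103), and the difference itself was tested as the interaction, -0.93 (SE 0.15, adjusted p = 0.000209). This interaction was called in each of 8 runs with 1 library left out, from -1.03 to -0.81. Scaled to spike-ins it was -0.79 and not called. The call of Vem on top of RSV was lost without RSV replicate 2 (0.28, adjusted p = 0.116) and without RSV+Vem replicate 1 (0.33, adjusted p = 0.112), and its sign turned under spike-in scaling (-0.13).

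NRF1 encodes a factor that binds the promoters of many nuclear respiratory genes. Its level was 19.7 and 18.3 CPM with vehicle, 14.7 and 15.7 with Vem, 13.0 and 11.2 with RSV, and 13.0 and 12.1 with RSV+Vem. It was 18.5 and 20.1 CPM with TCDD and 16.0 and 13.7 with RSV+TCDD. The 6 libraries with RSV and the 2 with Vem all lay below the 4 vehicle and TCDD libraries. Against vehicle NRF1 fell with RSV (-0.65, SE 0.14, adjusted p = 0.00105) and with RSV+Vem (-0.59, SE 0.14, adjusted p = 0.00211), and both calls held with each library left out. With Vem alone the value was -0.32 and missed the threshold (SE 0.14, adjusted p = 0.0558). RSV+TCDD against TCDD gave -0.38 (adjusted p = 0.0346), a call lost in 3 of the 4 runs with a library left out, by DESeq2 (adjusted p = 0.0769) and without the filter on low counts (adjusted p = 0.0892).

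TFAM encodes the protein that packages mtDNA and starts its transcription. Vehicle gave 116.9 and 128.5 CPM, Vem 62.2 and 68.0, RSV 81.0 and 98.5, and RSV+Vem 73.5 and 92.6. TCDD gave 109.9 and 91.2 CPM and RSV+TCDD 69.1 and 98.5. Both vehicle libraries were above all others and both Vem libraries below all others, whereas the 4 groups between them overlapped each other in order. The change with Vem was -0.92 (SE 0.16, adjusted p = 0.000328), called in all 4 runs with a library left out, and -1.57 under spike-in scaling (adjusted p = 0.00343). RSV gave -0.45 (SE 0.16, adjusted p = 0.0385), a call lost without RSV replicate 1 (-0.32, adjusted p = 0.255), vehicle replicate 1 (-0.52, adjusted p = 0.0641) or vehicle replicate 2 (-0.38, adjusted p = 0.175).

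On top of RSV the change of TFAM with Vem was not called. It was -0.69 under spike-in scaling (adjusted p = 0.363) and -0.12 with TMM factors (SE 0.16, adjusted p = 0.638, 95% interval -0.47 to 0.23). The interaction was 0.79 and called (SE 0.23, adjusted p = 0.025), but it was lost without RSV replicate 1 (0.66), RSV+Vem replicate 2 (0.63), vehicle replicate 2 (0.71), Vem replicate 1 (0.73) or Vem replicate 2 (0.86). Against vehicle RSV+Vem lowered TFAM by -0.57 (SE 0.16, adjusted p = 0.0104), a call lost without RSV+Vem replicate 1 (-0.41) or vehicle replicate 2 (-0.49).

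TFB2M, the factor that opens the mtDNA promoter, had 16.5 and 23.6 CPM with vehicle, 14.7 and 18.8 with Vem, 21.9 and 20.01 with RSV, and 15.5 and 12.8 with RSV+Vem. TCDD gave 20.9 and 20.4 CPM and RSV+TCDD 19.6 and 19.4. The vehicle range overlapped those of Vem, RSV, TCDD and RSV+TCDD but not that of RSV+Vem, which held the lowest library. TFB2M was called only with RSV+Vem, at -0.49 against vehicle (SE 0.17, adjusted p = 0.0236) and -0.55 against RSV (SE 0.17, adjusted p = 0.0259). The 2 RSV+Vem libraries also had the lowest RIN values, whose part in the RSV+Vem values of TFB2M and the other regulators was not tested. The first call was lost without vehicle replicate 2 (-0.19, adjusted p = 0.41) and without RSV+Vem replicate 2 (-0.38, adjusted p = 0.144), and the second without RSV replicate 1 (-0.48) and RSV+Vem replicate 2 (-0.43). Without vehicle replicate 1, TFB2M was also called lower with Vem (-0.50, adjusted p = 0.0187, in place of -0.27, adjusted p = 0.191).

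POLRMT, the mitochondrial RNA polymerase, had 64.9 and 74.2 CPM with vehicle, 62.5 and 68.9 with Vem, 59.3 and 42.4 with RSV, and 51.0 and 44.8 with RSV+Vem. TCDD gave 63.1 and 71.2 CPM and RSV+TCDD 60.01 and 54.4. All 6 libraries with RSV lay below the 6 without. RSV lowered POLRMT against vehicle (-0.45, SE 0.14, adjusted p = 0.0132) and, as RSV+Vem, against Vem (-0.45, SE 0.14, adjusted p = 0.0173). RSV+TCDD against TCDD gave -0.23 and was not called (adjusted p = 0.197). The first call was lost without RSV replicate 2 (-0.23, adjusted p = 0.194) and without vehicle replicate 2 (-0.35, adjusted p = 0.105), and the second without RSV+Vem replicate 2 (-0.37) and Vem replicate 2 (-0.38). Vem itself left POLRMT at -0.08 (SE 0.14, adjusted p = 0.631, 95% interval -0.37 to 0.20).

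Within the RSV background, Vem raised PPARGC1A and ESRRA and lowered PPARGC1B and TFB2M, which is 4 of 7 regulators beside 24.7% of all tested genes (11.3% higher, 13.4% lower). PPARGC1A rose 1.88-fold over RSV (0.91, SE 0.16, adjusted p = 0.00119). Its interaction was 0.27 and not called (SE 0.22, adjusted p = 0.416, 95% interval -0.21 to 0.74). RSV on top of Vem lowered PPARGC1A, ESRRA and POLRMT, 3 of 7 beside 37.9% of all tested genes (19.1% higher, 18.7% lower). Of the 7 regulators, ESRRA and TFAM had a called interaction of RSV and Vem, beside 22.7% of all tested genes (11.8% higher, 10.9% lower). With spike-in scaling the 1 regulator called for RSV+Vem against RSV was PPARGC1B (-1.84), while PPARGC1A was at 0.36 (adjusted p = 0.605), TFB2M at -1.04 (adjusted p = 0.209) and ESRRA turned to -0.13. For RSV+Vem against Vem the 3 values stayed below 0 and none was called. Over all genes 20 were higher and 461 lower for RSV+Vem against RSV in place of 1823 and 2149, 334 higher and 55 lower against Vem in place of 3079 and 3009, and for the interaction 8 were higher and 0 lower in place of 1905 and 1751. None of the regulators' interactions was called on that scale.

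**Figure D3:**
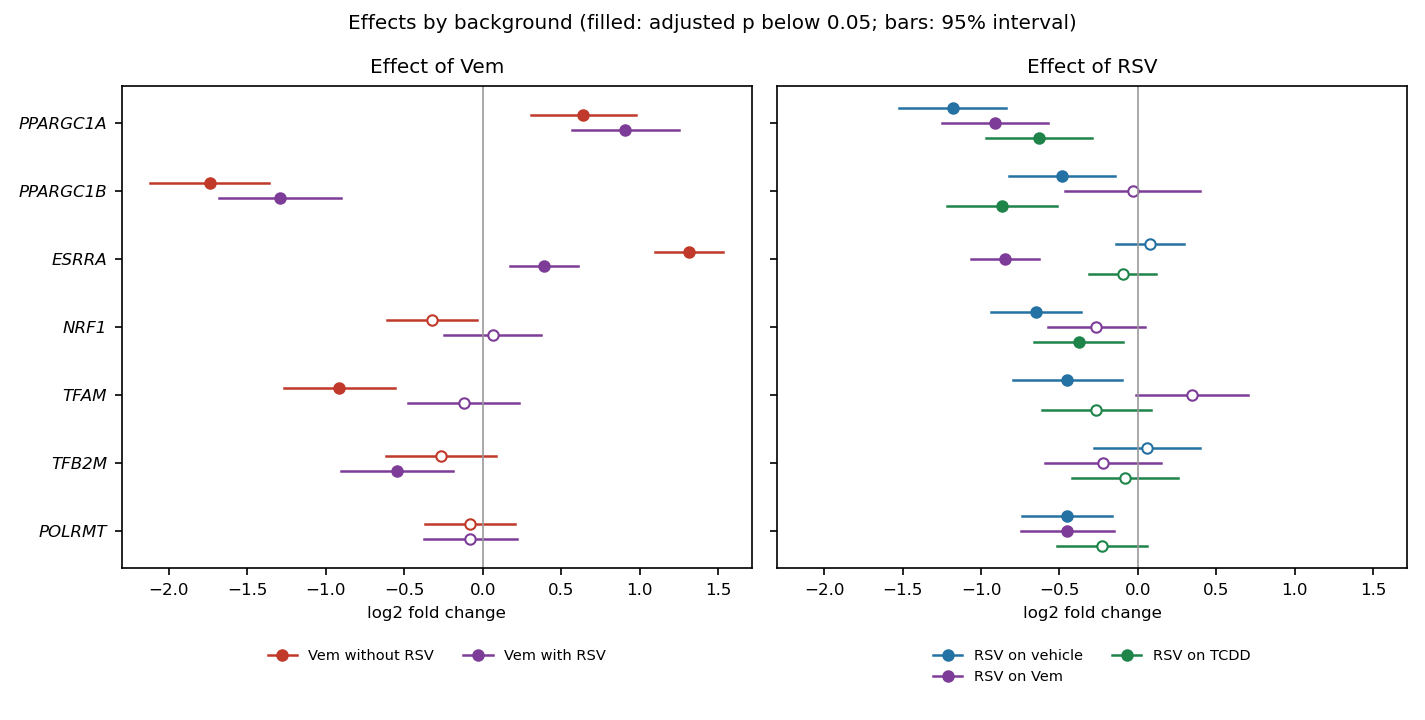
Log2 fold change (horizontal axes) of each regulator for Vem without and with RSV (left) and for RSV on vehicle, on Vem and on TCDD (right), with 95% intervals; filled points passed the test. The Vem effects on ESRRA (1.32 and 0.39) and TFAM (-0.92 and -0.12) lie apart, while those on PPARGC1A and POLRMT have overlapping intervals.

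TCDD changed fewer genes than Vem or RSV did. Of the 7 regulators 0 were called by edgeR against vehicle, 1 had an unadjusted p below 0.05, and DESeq2 called 0, beside 6.73% of all tested genes called. That 1 was ESRRA, at 0.32 (SE 0.10, adjusted p = 0.0686), and -0.19 under spike-in scaling. For RSV+TCDD against RSV edgeR called 0 and DESeq2 called 1, beside 6.16% of all tested genes by edgeR. Here 3374 of all tested genes and 2 of the 7 had an unadjusted p below 0.05. The values were 0.46 for PPARGC1A (SE 0.16, adjusted p = 0.101, by DESeq2 0.0291) and -0.57 for PPARGC1B (SE 0.17, adjusted p = 0.0518). Under spike-in scaling PPARGC1A turned to -0.54. PPARGC1A was called without RSV replicate 2 (0.71, adjusted p = 0.0291), and PPARGC1B without RSV replicate 1 (adjusted p = 0.0381) or RSV+TCDD replicate 1 (adjusted p = 0.0352).

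RSV+TCDD against TCDD lowered 3 of the 7, PPARGC1A, PPARGC1B and NRF1, beside 37.7% of all tested genes (18.6% higher, 19.1% lower). PPARGC1B had the largest of these changes (-0.87, SE 0.17, adjusted p = 0.000557), called with each of the 4 libraries left out. Under spike-in scaling PPARGC1A and PPARGC1B remained called and NRF1 did not (adjusted p = 0.1003). For the interaction of RSV and TCDD edgeR and DESeq2 called 0 of the 7, beside 0.149% of all tested genes by edgeR. An unadjusted p below 0.05 was found for 1268 of all tested genes and for 1 of the 7 (PPARGC1A, 0.55, adjusted p = 0.558). The shift of the median with spike-in scaling was -0.51 for TCDD, -1.03 for RSV+TCDD against RSV, -0.69 for RSV+TCDD against TCDD and -0.52 for the interaction. The calls over all genes then were 2 higher and 8 lower, 1 and 6926, 160 and 1752, and 0 and 1, in place of 759 and 323, 625 and 366, 2989 and 3068, and 2 and 22.

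Genes around the regulators were followed as 5 lists. Among 20 partners and upstream regulators of PGC1, 6 rose and 8 fell with Vem (median log2 fold change -0.14, all tested genes -0.03), and 4 rose and 6 fell with RSV (median -0.12, all tested genes -0.00). Over all tested genes 25.5% rose and 26.9% fell with Vem, and 20.5% rose and 20.2% fell with RSV. The largest called changes with Vem were in CRTC1 (0.79), a CREB coactivator, LPIN1 (0.78), a lipid phosphatase that also acts with PGC1α, and TFE3 (0.70), a factor of the MITF family. With RSV they were in CRTC1 (0.98), MITF (-0.97) and TFE3 (0.78). The count of falls with Vem was 4 without vehicle replicate 1 or Vem replicate 2 and 5 without Vem replicate 1. Under spike-in scaling 0 of the list rose and 5 fell with Vem, beside 195 higher and 3620 lower of all 16080 tested genes. With RSV 0 of the list were called on that scale, beside 256 higher and 113 lower of all tested genes.

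MITF, the melanocyte lineage factor, was at 0.21 with Vem and not called (SE 0.15, adjusted p = 0.264), and -0.44 under spike-in scaling. It fell with RSV (-0.97, SE 0.15, adjusted p = 0.000355), fell on top of Vem (-0.65, SE 0.15, adjusted p = 0.00539), and rose when Vem was added to RSV (0.54, SE 0.15, adjusted p = 0.0236), a value that was -0.0055 under spike-in scaling. With Vem 25.5% of all tested genes were called higher and 26.9% lower, and with RSV 20.5% and 20.2%. Of the 8 melanocytic markers, MITF among them, 6 were called higher and 1 lower with Vem (median 0.38, under spike-in scaling -0.27), and 1 higher and 7 lower with RSV (median -0.61). The marker against the rest was S100B, a calcium-binding protein, at -1.82 with Vem and 0.78 with RSV. The summed level, which the most abundant markers dominate, was highest with Vem and lowest with RSV, at 20506 and 19414 CPM with vehicle, 48216 and 51561 with Vem, 11162 and 12361 with RSV, and 19683 and 21060 with RSV+Vem. The part of these markers in the PPARGC1A values was not tested.

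Of 14 nuclear receptors and respiratory factors 12 were tested. With Vem 4 rose and 2 fell (median 0.10), led by THRA (1.10), the thyroid hormone receptor α, RXRB (0.60), a retinoid X receptor, and GABPB2 (0.48), a subunit of the respiratory factor GABP. The 6 calls of 12 are near the 52.4% called over all tested genes. GABPB2 lost its call without 3 of the 4 libraries in turn and by DESeq2, and the count of rises was 2 without vehicle replicate 2. Under spike-in scaling RXRB turned to -0.055, GABPB2 to -0.17 and the list median to -0.55. With RSV 1 rose and 4 fell (median -0.01), near the 40.7% called over all tested genes, led by GABPA (-0.63), the DNA-binding subunit of GABP, PPARD (0.50), a fatty acid receptor, and YY1 (-0.38), a zinc-finger factor. Without RSV replicate 1 the count of falls was 0, and GABPA was at -0.50 and YY1 at -0.29, neither called.

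The 16 other genes of mtDNA transcription and replication fell or did not pass the test with Vem: 8 fell and 0 rose (median -0.33), beside 26.9% lower and 25.5% higher over all tested genes. PRIMPOL (-0.99), a primase and polymerase, TFB1M (-0.92), a mitochondrial rRNA methyltransferase related to TFB2M, and LRPPRC (-0.58), which stabilizes mitochondrial mRNAs, changed most. Under spike-in scaling 5 fell and 0 rose with Vem, beside 3620 lower and 195 higher of all 16080 tested genes. With RSV 2 rose and 6 fell (median -0.04), beside 20.5% higher and 20.2% lower over all tested genes, led by TOP1MT (-0.79), a mitochondrial topoisomerase, ELAC2 (-0.61), which trims tRNA ends, and TFB1M (-0.60). The TFB1M call was lost without RSV replicate 1 (-0.46).

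Of 20 target genes of PGC1 and ERR in energy metabolism, 15 rose with Vem, 1 fell and 4 were not called (median 0.72), beside 25.5% higher and 26.9% lower over all tested genes. The count of rises was 15 with each library left out. Among the called targets with large changes were COX5B (1.35), a subunit of cytochrome c oxidase, and PDK4 (-1.26), a kinase that restrains pyruvate oxidation. RSV added to Vem lowered 14 of the 20 and raised 2 (median -0.46), beside 18.7% lower and 19.1% higher over all tested genes. The count lowered was 12 to 13 with a library left out. Under spike-in scaling 0 targets were lowered and 0 raised by RSV on top of Vem. The interaction of RSV and Vem was lower in 13 and higher in 0 (median -0.54), between 10 and 14 with a library left out, beside 10.9% lower and 11.8% higher. RSV alone raised 6 and lowered 4 (median 0.05, under spike-in scaling -0.12), beside 20.5% higher and 20.2% lower, led by VDAC1 (-0.93), the outer membrane channel, UCP2 (0.92), an inner membrane carrier, and CYCS (-0.89), cytochrome c. The CYCS call was lost with any of the 4 libraries left out, and the count of falls was 2 without RSV replicate 1 or vehicle replicate 1. Scaled to spike-ins the median with Vem was 0.07, with 1 target higher and 1 lower, and no interaction was called. Over all 16080 tested genes 195 were higher and 3620 lower with Vem on that scale.

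The 13 protein-coding genes of mtDNA itself, transcribed by the machinery that TFAM, TFB2M and POLRMT form, were counted per gene symbol, not per separate mRNA. Of these 13 genes 12 rose with Vem (median 0.82), between 10 and 12 with a library left out, beside 25.5% of all tested genes. MT-ND5 (1.28), MT-CO1 (1.17) and MT-CO3 (0.92) changed most. MT-ND6, the 1 mRNA of the light strand, was at -0.38 and not called. The libraries were made with an mRNA kit, and whether it captured MT-ND6 like the other mRNAs was not tested. The MT-ND6 value may therefore not be comparable with theirs. So TFAM was lower and mtDNA-encoded mRNAs higher in the same 2 Vem libraries. All transcripts of mtDNA, rRNAs included, made up 5.09% and 6.16% of gene counts with vehicle, 10.7% and 8.99% with Vem, 7.66% and 8.25% with RSV, and 10.02% and 9.01% with RSV+Vem. By these shares, which are not TMM-scaled, RSV lay above vehicle and RSV+Vem overlapped Vem, and the TMM factors were 0.903 and 0.890 with Vem and 1.07 and 1.06 with RSV+Vem. RSV alone raised 2 of the 13, MT-ND5 (1.06) and MT-CO1 (0.52), and lowered 0 (median -0.04), beside 20.5% and 20.2% of all tested genes, and without vehicle replicate 2 the count of rises was 5. Added to Vem, RSV lowered 10 and raised 0 (median -0.55), beside 18.7% and 19.1%, and the count was 4 without Vem replicate 1 and 6 without RSV+Vem replicate 2. The interaction was lower in 5 of 13 by edgeR, beside 10.9% of all tested genes, in 9 without vehicle replicate 2, and in 11 by DESeq2. On the spike-in scale the Vem median was 0.17 and 0 of the 13 were called.

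**Figure D4:**
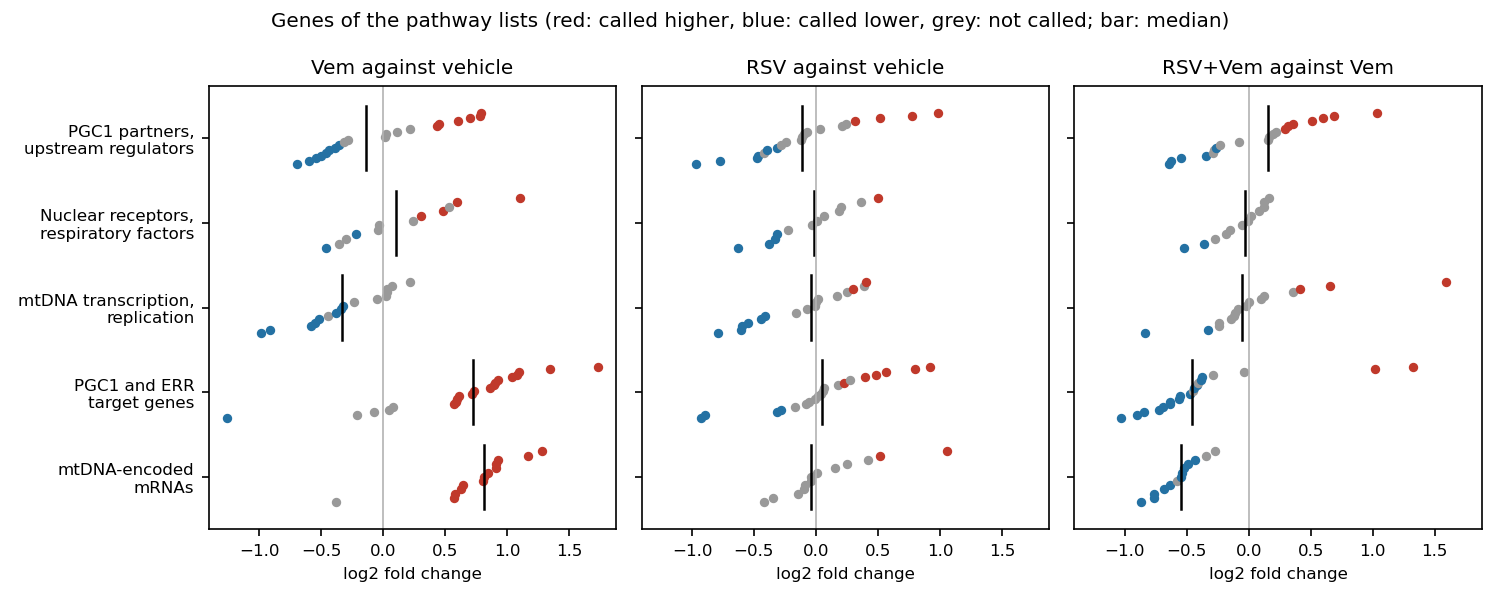
Log2 fold change (horizontal axes) of each tested gene of the 5 lists with Vem, with RSV, and with RSV+Vem against Vem; red points were called higher, blue lower, grey neither, and bars are list medians. With Vem, target genes and mtDNA-encoded mRNAs have medians of 0.72 and 0.82 and the mtDNA machinery -0.33, and with RSV on top of Vem the first 2 lists have medians of -0.46 and -0.55.

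To see which genes had a profile most like PPARGC1A, log2 CPM were centred on each gene's mean over the 12 libraries and compared as the root mean square difference, in log2 units, among the 11954 tested genes whose mean count reached 50. The nearest were HAS2 (0.1499), a hyaluronan synthase, SLC6A15 (0.1503), an amino acid transporter, DIP2C (0.1504), VWA8 (0.151) and EPS15 (0.157), an endocytic adaptor. PPARGC1A itself spread by 0.592 around its mean. MITF was number 18 in this order (0.200) and ESRRA number 1278 (0.443). All values share the same libraries and depth, so the order is a description.

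The genes nearest to PPARGC1B were RP5-1024G6.8 (0.223), LRP8 (0.224), a lipoprotein receptor, ZNF850 (0.230), FAM129B (0.242) and SFXN2 (0.249), a mitochondrial carrier, beside its own spread of 0.708. PPARGC1A was number 10805 of the 11954 in likeness to PPARGC1B.

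**Figure D5:**
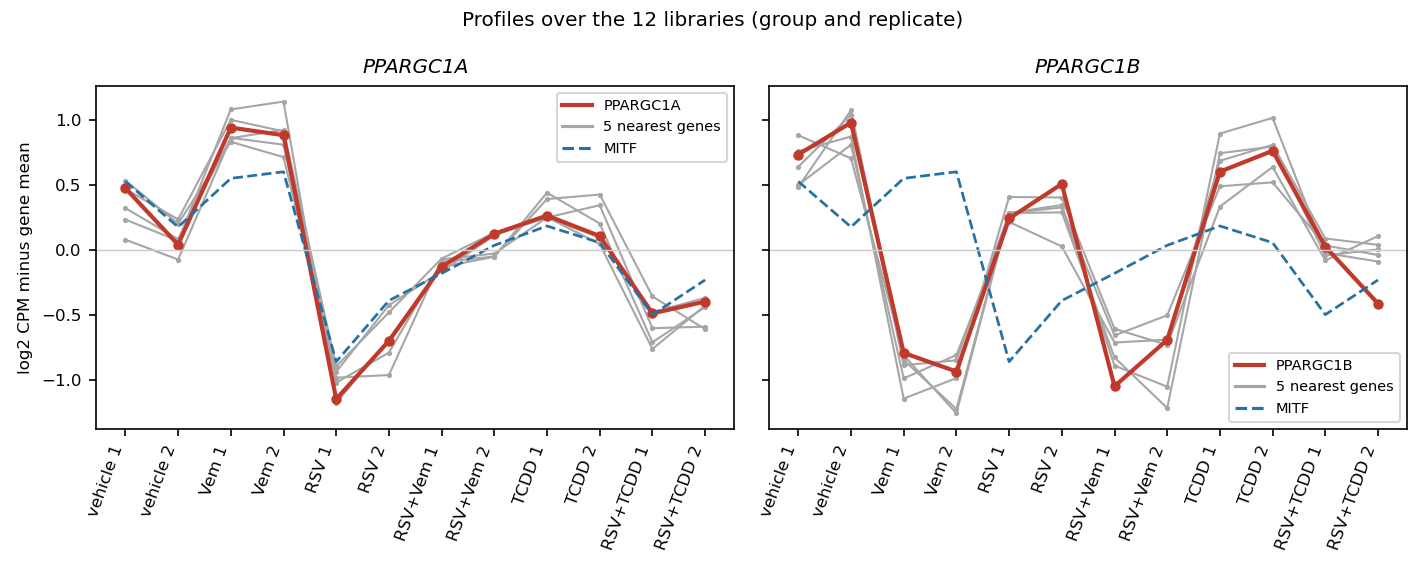
Log2 CPM minus each gene's mean (vertical axis) over the 12 libraries, by group and replicate, for PPARGC1A (left) and PPARGC1B (right) in red, their 5 nearest genes in grey and MITF as a dashed line. PPARGC1A peaks in the 2 Vem libraries, where PPARGC1B is low, and MITF runs close to PPARGC1A.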

How the data were processed

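RNA of 501Mel cells was sequenced by the authors as 12 stranded mRNA libraries, aligned to hg19 (GRCh37) with STAR 2.4.0a and counted per gene symbol with featureCounts of Subread 1.5.0-p3. The annotation release is not given in the sources used here. The deposited table holds raw counts without normalization. Its 96 control sequences were set aside and 16080 genes were kept with filterByExpr.

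edgeR 4.0.16 (R 4.3.3) was used with TMM factors and robust dispersion, in a quasi-likelihood fit of the 6 groups over all 12 libraries. F tests were two-sided with Benjamini-Hochberg adjustment over all tested genes. The SE is the absolute contrast divided by the square root of F. A common biological coefficient of variation of 0.0915 was estimated. Libraries of a group differed beyond counting noise in every group, and counting error is a lower limit, since PCR copies were not removed. Permuting 2 against 2 libraries cannot reach the threshold for any gene, so that p-values rest on the fit. The steps were tested on simulated data.

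The 7 regulators and the lists were chosen with earlier results of these data known. All 7 are named in each comparison. From each list the 3 called genes with the largest absolute change with Vem and with RSV are named, besides MITF and MT-ND6, and the 5 genes nearest to each coactivator. A gene that this rule names is not reported here. Group ranges are those of the 2 libraries. Alternatives were DESeq2 1.42.0, RLE factors, spike-in scaling, other filters, a replicate block, only the groups compared, and each library left out. The alternatives for list genes were added after the data were seen. Figures were drawn with matplotlib 3.10.9.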

Additional observations from a re-analysis of the deposited data

Results flagged for a closer look

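For ESRRA the effect of Vem on the log2 scale differed with and without RSV, by -0.93 (edgeR interaction, adjusted p = 0.000209), and all 8 runs with a library left out kept the call. For TFAM the effect of Vem also differed with and without RSV, by 0.79 (edgeR interaction, adjusted p = 0.025), and the call was kept in 3 of 8 such runs.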

How the results depend on the processing

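DESeq2, RLE factors, other filters, only the groups compared and a replicate block left the number of called regulators within 1.5 times in every comparison, except RSV+TCDD against RSV (0, but 1 by DESeq2 and 2 without the filter) and the interaction of RSV and TCDD (0, but 1 without the filter). Scaled to spike-ins the numbers were 2 for Vem, 0 for RSV, 0 for RSV+Vem against Vem, 1 against RSV, 0 for the interaction of RSV and Vem, and 3 for RSV+TCDD against RSV. With each library left out they ran from 2 to 4 for RSV, 1 to 2 for the interaction of RSV and Vem, 0 to 1 for RSV+TCDD against RSV and 1 to 3 for RSV+TCDD against TCDD. No label says that a replicate number marks a shared batch. Same-numbered deviations correlated between groups from -0.12 to 0.15, above 0.1 in 3 of 15 pairs of groups, which were the 3 pairs among RSV, RSV+Vem and RSV+TCDD. The numbers were not used as pairs, and the replicate block changed no call, with ESRRA at 1.32 and PPARGC1A at 0.64 for Vem.

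Signs turned under spike-in scaling for 3 called values, PPARGC1A with Vem (-0.011), ESRRA with RSV+Vem against vehicle (-0.21) and against RSV (-0.13). They also turned for values that had not been called: with RSV, ESRRA (-0.080) and TFB2M (-0.10); for RSV+Vem against RSV, NRF1 (-0.46); with TCDD, ESRRA (-0.19), NRF1 (-0.49) and TFB2M (-0.47); for RSV+TCDD against RSV, ESRRA (-0.90), NRF1 (-0.72), POLRMT (-0.86) and PPARGC1A (-0.54); and for the interaction of RSV and TCDD, NRF1 (-0.23), POLRMT (-0.30) and TFAM (-0.37). Of list genes, MITF turned for RSV+Vem against RSV (-0.0055), and MITF (-0.44), RXRB (-0.055) and GABPB2 (-0.17) turned with Vem. The cause was not tested. POLRMT for the interaction of RSV and Vem, near 0, was -0.0054 with at least 10 counts per library, -0.022 by DESeq2 and -0.020 with RLE factors, and NRF1 with TCDD was -0.0050 without the filter.

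With a library left out, 27 of 336 values changed sign, none of them called. They ran from -0.040 to 0.18 for ESRRA with RSV, -0.041 to 0.17 for NRF1 with RSV+Vem against RSV, -0.041 to 0.078 for NRF1 with TCDD, -0.29 to 0.15 for PPARGC1A with TCDD, and -0.19 to 0.17 for PPARGC1B with RSV+Vem against Vem. POLRMT ran from -0.18 to 0.036 with Vem, -0.15 to 0.042 with TCDD, -0.30 to 0.18 for RSV+Vem against RSV, -0.048 to 0.44 for RSV+TCDD against RSV, and -0.22 to 0.27 for the interaction of RSV and Vem. TFAM ran from -0.29 to 0.042 for RSV+Vem against RSV, -0.37 to 0.14 for RSV+TCDD against RSV, and -0.087 to 0.42 for the interaction of RSV and TCDD. TFB2M ran from -0.50 to 0.040 with Vem, -0.18 to 0.35 with RSV, -0.20 to 0.32 with TCDD, and -0.42 to 0.095 for the interaction of RSV and TCDD. Where a run left 1 library in a group, that library was taken to vary like the other groups.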
